A study of Homo sapiens with 9 samples.

Results

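Transcript levels of 10 factors, regulators and targets of the coactivators YAP and TAZ were examined, out of 58735 genes in the deposited count table. They were found by their symbol: the coactivators YAP1 and WWTR1, their DNA-binding partner TEAD1, the regulators AMOTL1, AMOTL2 and LATS2, and the targets CTGF, CYR61, ANKRD1 and AXL. All 10 were found, each once, and all 10 passed the filter on low counts that left 16874 genes for testing. ANKRD1 had so few reads that it passed only through the groups in which it was higher.

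The Hippo pathway is a chain of protein kinases that holds back the transcriptional coactivators YAP, encoded by YAP1, and TAZ, encoded by WWTR1. When the kinases LATS1 and LATS2 phosphorylate YAP and TAZ, the proteins stay in the cytoplasm; unphosphorylated, they enter the nucleus, bind TEAD transcription factors and switch on target genes such as CTGF and CYR61. Some targets, among them LATS2 and AMOTL2, encode inhibitors of YAP and TAZ. Phosphorylation and location of YAP and TAZ were not measured here, only transcript levels.

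Transcripts were counted by bulk RNA sequencing in U87, a human glioblastoma cell line, with 3 libraries in each of 3 groups. All groups were stable lines grown in DMEM with fetal bovine serum. IDH1 was also transcribed in the vector group. The group PCDH carried the vector alone, the group IDH1mt carried the R132H mutant of isocitrate dehydrogenase 1, and the group C269S carried that mutant with a cysteine changed to serine, labelled IDH1mt C269S. The study asked how self-palmitoylation of the mutant enzyme bears on gene expression, and no group carried introduced IDH1 without R132H. The labels do not say how many selected lines each construct had or whether the libraries came from separate cultures. The p-values therefore rest on a spread among libraries that could be technical, and an effect of the construct cannot be told apart from a difference between lines. In bulk RNA, fewer cells expressing a gene and less transcript per cell cannot be told apart.

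Libraries held 19108925 to 24803711 counts. The introduced gene, IDH1, had a mean CPM of 111 ± 7.97 with the vector (± SD over 3 libraries). It had 677 ± 16.5 CPM with IDH1mt and 739 ± 30.3 CPM with C269S. CPM is counts per 1e6 reads, scaled between libraries. These levels set the vector group apart from the mutants. The mutant groups did not overlap either. IDH1mt libraries had 660, 678 and 693 CPM, and C269S libraries 773, 724 and 718 CPM. The log2 fold change of IDH1 in C269S against IDH1mt was 0.13 (SE 0.05) and did not pass (adjusted p = 0.227 in edgeR). The part of this difference in IDH1 level in the results was not tested. Mesenchymal markers were abundant in every library, whereas of the glial markers AQP4 had no count, SOX2 and S100B were near 0, GFAP had 3.11 to 4.01 CPM, OLIG2 7.07 to 9.39 CPM and NES 63.4 to 72.2 CPM as group means. The 6 glial markers summed to 68.2 to 84.8 CPM over the libraries. Leukocyte markers summed to at most 1.52 CPM in any library, with CD3E and MS4A1 at 0, and epithelial markers to at most 4.49 CPM. Endothelial markers summed to 22.3 to 23.8 CPM in PCDH libraries, 17.4 to 18.9 CPM in IDH1mt libraries and 20.1 to 21.9 CPM in C269S libraries. Of them KDR was called, lower in IDH1mt than in PCDH (9.58 against 16.6 CPM) and higher in C269S (13.7 CPM) than in IDH1mt. Neuron markers summed to 54.97 to 71.7 CPM, and SNAP25 was called higher in IDH1mt than in PCDH. All 6 mesenchymal markers passed the test in IDH1mt against PCDH, with VIM, COL1A1, COL1A2 and TNC lower and CD44 and FN1 higher. Of all genes tested, 14.1% passed there. The mesenchymal sums ran from 24269 to 25356 CPM with the vector, 22925 to 25033 with IDH1mt and 27242 to 27749 with C269S. The part of these markers in the results was not tested. PCDH replicate 3 differed more from its group than the others. Between it and the other vector libraries, 47.5% and 49.6% of 12466 genes had an unadjusted chi-square p under 0.05, against 32.1% between those. Counting noise alone would give a share near 0.05. PCDH replicate 3 was the highest vector library for 7 of the 10 genes, so calls without it are given beside the results. C269S replicate 3 also differed more from its group, with 38.8% and 39.6% against 26.5%.

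The sequences just upstream of the transcription starts are shown because TEAD factors bind the motif GGAATG, read as CATTCC on the other strand, and a reader can see which of the genes hold it near the start. All 10 genes matched a RefSeq gene (CTGF is listed there as CCN2 and CYR61 as CCN1), and 8 had a start window in the RefSeq table (GRCh38.p14), 11 windows in all. CYR61 and TEAD1 had none. Shown are the 250 bases upstream of the start on the gene's own strand for CTGF (chr6:131951373-131951622, minus strand), for the second listed start of AMOTL2 (chr3:134374448-134374697, minus strand), for ANKRD1 (chr10:90921088-90921337, minus strand) and for the second listed start of WWTR1 (chr3:149658026-149658275, minus strand). Capitals mark GGAATG or CATTCC.
CTGF: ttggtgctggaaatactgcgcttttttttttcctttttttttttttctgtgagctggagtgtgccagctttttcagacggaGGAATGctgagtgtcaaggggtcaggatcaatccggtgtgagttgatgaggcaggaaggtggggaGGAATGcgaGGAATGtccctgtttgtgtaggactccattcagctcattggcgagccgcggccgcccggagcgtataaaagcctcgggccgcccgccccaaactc
AMOTL2: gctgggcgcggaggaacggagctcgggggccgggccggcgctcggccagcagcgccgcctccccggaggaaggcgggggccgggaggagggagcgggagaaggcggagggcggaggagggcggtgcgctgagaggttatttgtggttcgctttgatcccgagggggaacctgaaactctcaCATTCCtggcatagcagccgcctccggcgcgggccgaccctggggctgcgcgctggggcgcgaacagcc
ANKRD1: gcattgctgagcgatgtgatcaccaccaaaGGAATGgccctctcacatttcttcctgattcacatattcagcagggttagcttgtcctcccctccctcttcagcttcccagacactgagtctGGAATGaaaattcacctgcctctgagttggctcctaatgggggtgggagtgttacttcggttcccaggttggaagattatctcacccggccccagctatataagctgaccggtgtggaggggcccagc
WWTR1: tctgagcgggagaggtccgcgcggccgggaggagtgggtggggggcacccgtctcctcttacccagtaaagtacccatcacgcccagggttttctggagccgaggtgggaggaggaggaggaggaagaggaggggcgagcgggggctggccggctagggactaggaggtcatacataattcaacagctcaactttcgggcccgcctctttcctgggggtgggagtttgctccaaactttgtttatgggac

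CTGF held the motif 3 times, with first bases 169, 104 and 95 bases upstream of the start. ANKRD1 held it at 220 and 128 bases upstream, and AMOTL2 once, 69 bases upstream of its second listed start and nowhere in the window of its first. YAP1 had 1 match 162 bases upstream, AXL 1 match 212 bases upstream of its second listed start, and LATS2 1 match 9 bases after the start. No window of WWTR1 or AMOTL1 held it. Of 35116 RefSeq windows of 300 bases (250 before the start and 50 after), 14.03% held the motif at least once and 0.128% held it 3 or more times, as that of CTGF did. The AP-1 motif TGANTCA, its own reverse complement apart from the middle base, occurred in 1 member's window, that of ANKRD1, and in 7.71% of all windows. The CArG box, bound by serum response factor, occurred in none of the members' windows and in 1.29% of all windows. Of the members with a match, CTGF and AMOTL2 fell in IDH1mt against PCDH, and ANKRD1, YAP1, AXL and LATS2 did not pass the test. CYR61, which also fell, had no window. A match is a description of letters in a short window and not a measured binding site.

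Per gene length, AXL was the most abundant member in every group and ANKRD1 the least. A fixed length was deposited for each gene, whichever of its transcripts were expressed, and the order of the genes depends on it. In PCDH the deposited FPKM (fragments scaled by gene length and library total) was 79.8 ± 3.11 for AXL, 29.01 ± 2.32 for CYR61, 16.2 ± 1.27 for YAP1, 15.9 ± 1.36 for CTGF, 15.5 ± 1.32 for TEAD1 and 12.9 ± 0.442 for AMOTL2 (SD, n = 3 each). WWTR1 followed with 9.55 ± 0.896, LATS2 with 5.61 ± 0.627, AMOTL1 with 3.21 ± 0.273 and ANKRD1 with 0.211 ± 0.0103 FPKM. The libraries of YAP1, CTGF and TEAD1 overlapped in this order, and all other neighbours were apart. In IDH1mt the order changed: CTGF, at 8.63 ± 0.877 FPKM, lay below WWTR1, at 12.2 ± 0.0677 FPKM, and overlapped AMOTL2, and CYR61, at 17.1 ± 0.819 FPKM, overlapped YAP1. In C269S, CYR61 (26.2 ± 1.59 FPKM) was again second and CTGF (14.9 ± 1.27 FPKM) again above WWTR1.

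**Figure D1:**
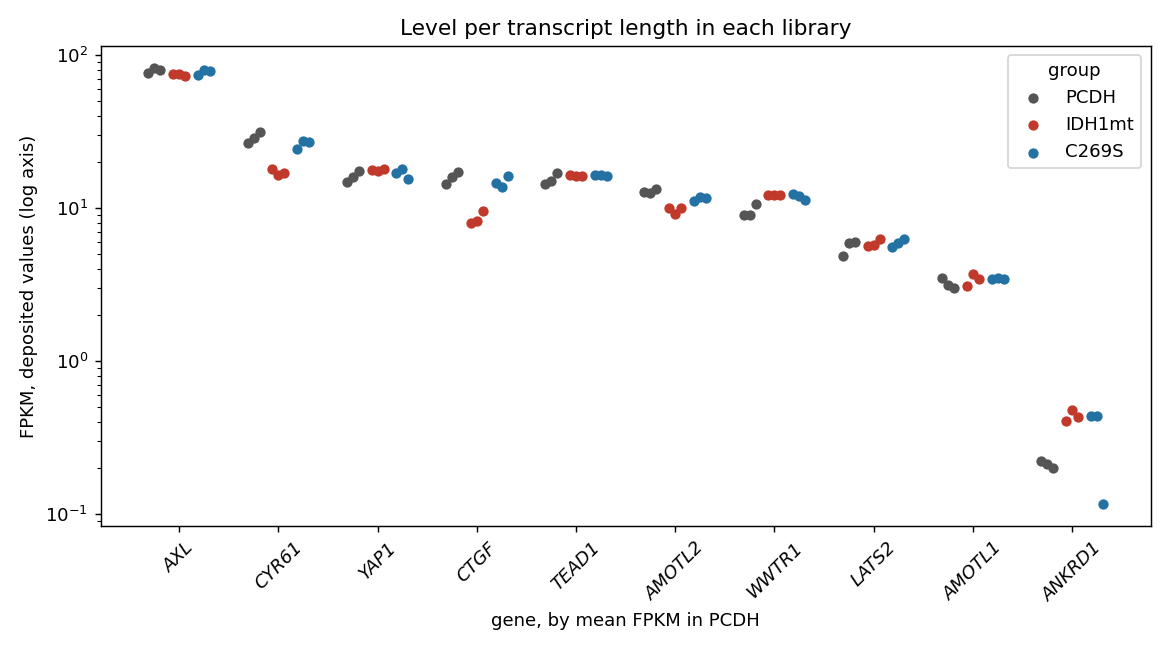
Deposited FPKM (log axis) of the 10 genes in each library, with genes ordered by their mean in PCDH and 3 points for each group. AXL lies highest near 80 and ANKRD1 lowest below 0.5, and the red IDH1mt points of CYR61 and CTGF lie below those of the other groups.

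The comparison of IDH1mt with PCDH asked what came with the R132H mutant. CTGF and CYR61, the best-known targets of YAP and TAZ, encode secreted matricellular proteins. Their transcripts fell, as did that of AMOTL2, while that of WWTR1, which encodes TAZ, rose. YAP1, TEAD1, AMOTL1, LATS2, AXL and ANKRD1 did not pass the test. In edgeR's quasi-likelihood test 4 of 10 members were called, where 14.1% of all genes were: 3 of 10 were lower, where 6.9% of all 16874 genes were, and 1 of 10 was higher, where 7.18% were. Their median log2 fold change was 0.06, beside -0.01 over all genes tested. CPM ranges of the groups did not overlap for 6 members, as was so for 29.2% of all genes. The 6 were CTGF, CYR61, AMOTL2, WWTR1, AXL and ANKRD1. Since ANKRD1 entered the test only through the groups in which it was higher, its lack of overlap is not read as a result. ANKRD1 is also counted in the members' medians given here and below.

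The comparison of C269S with IDH1mt asked what the cysteine change did on top of R132H. CTGF, CYR61 and AMOTL2 were higher in C269S and no member was lower, where edgeR called 4.9% of all genes, 2.29% higher and 2.61% lower. No member had a negative log2 fold change with an unadjusted p under 0.05 there, and DESeq2 called 0 lower. The median over the members was 0.02, beside 0.00 over all genes. Between C269S and PCDH only WWTR1 was called, higher in C269S, where 1.42% of all genes were called, 0.883% higher and 0.533% lower. These were 239 genes, which became 903 without PCDH replicate 3 and 103 without C269S replicate 1. The members' median was 0.06, beside -0.01. No member was called lower there by edgeR, DESeq2 or limma-voom. In edgeR 1 member, AMOTL2, had a negative log2 fold change with an unadjusted p under 0.05. These comparisons share libraries in pairs, so they are not independent of each other.

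**Figure D2:**
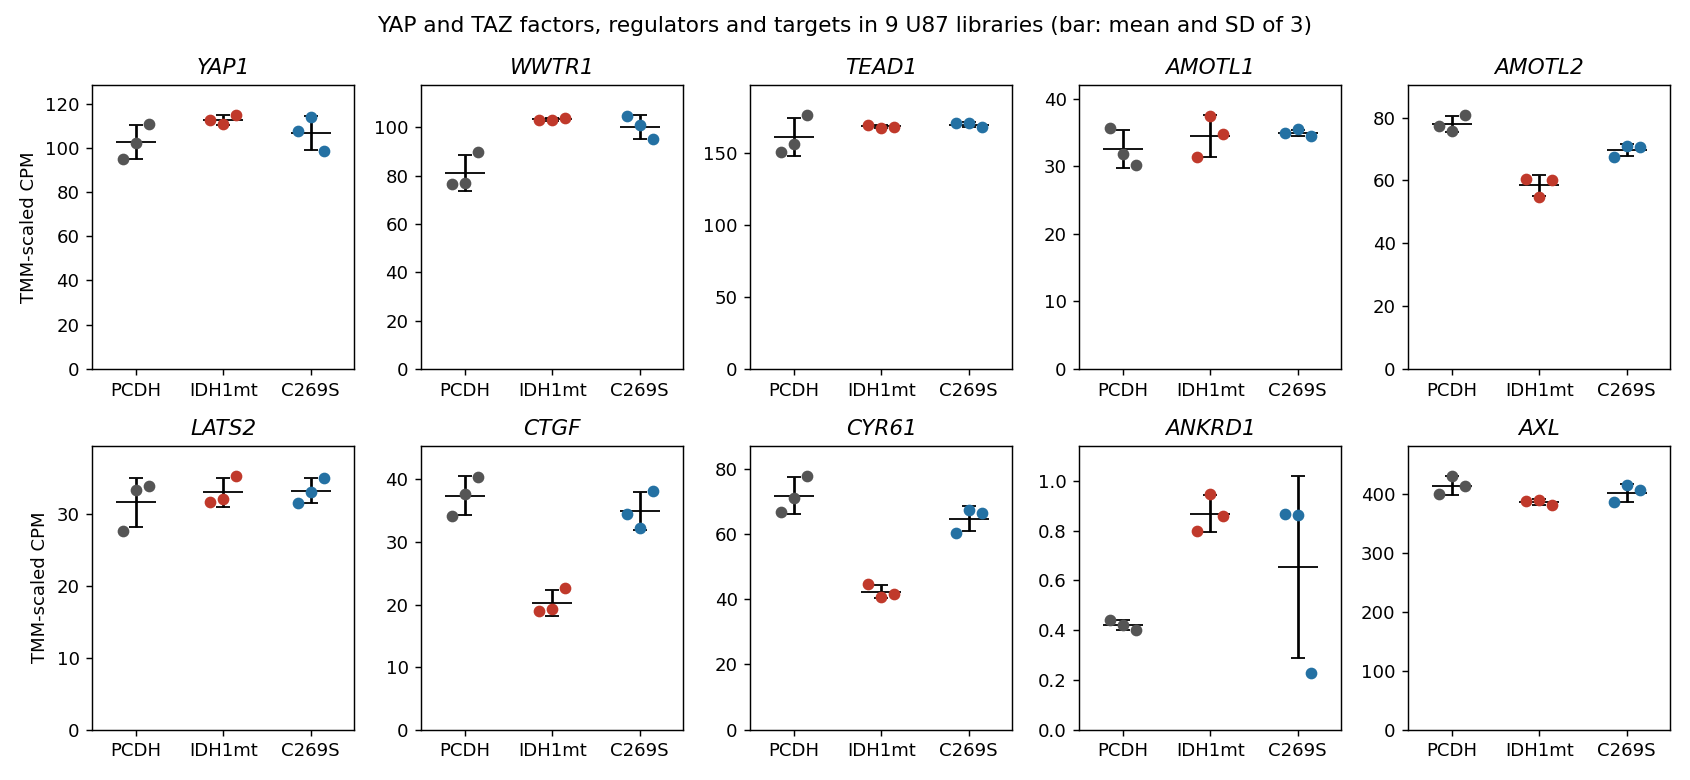
TMM-scaled CPM of each of the 10 genes in the 9 libraries, with the mean and SD of 3 libraries as black bars and axes that start at 0. CTGF and CYR61 are low in the 3 IDH1mt libraries alone, AMOTL2 is lowest there, and WWTR1 is lower in PCDH than in both mutant groups.

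CTGF (ENSG00000118523, chromosome 6, 131948176 to 131951373 on GRCh38, minus strand) encodes connective tissue growth factor, a secreted protein that binds matrix and growth factors. Its CPM values were 34.2, 37.6 and 40.4 in PCDH, 18.9, 19.3 and 22.7 in IDH1mt, and 34.5, 32.3 and 38.2 in C269S. The IDH1mt libraries lay below all others, and those of PCDH and C269S overlapped. CTGF fell 1.85-fold in IDH1mt against PCDH (log2 fold change -0.89 with an SE of 0.10; edgeR adjusted p = 3.69e-08), and 1.95% of all genes tested fell as far. It was 1.73-fold higher in C269S than in IDH1mt (log2 fold change 0.79 with an SE of 0.10, adjusted p = 8.77e-07). Between C269S and PCDH the log2 difference was -0.10 with a 95% interval from -0.29 to 0.09, that is, between 0.820 and 1.066 times the PCDH level. Both calls held in all 19 other analyses, those without each library included. Without PCDH replicate 3 the log2 fold change in IDH1mt was -0.83.

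CYR61 (ENSG00000142871, chromosome 1, 85580761 to 85583962, plus strand) encodes a related secreted protein of the same CCN family, which signals through integrins. Its CPM values were 66.7, 71.0 and 77.8 with the vector, 44.6, 40.7 and 41.6 with IDH1mt, and 60.3, 67.5 and 66.5 with C269S. As with CTGF, every IDH1mt library was below every other library. CYR61 fell 1.70-fold in IDH1mt (log2 fold change -0.76 with an SE of 0.08; edgeR adjusted p = 7.56e-09) and was 1.53-fold higher in C269S than in IDH1mt (log2 fold change 0.61 with an SE of 0.08, adjusted p = 1.31e-06). Against PCDH the C269S level differed by -0.15 on the log2 scale (95% interval -0.30 to 0.00, adjusted p = 0.428 in edgeR). Both calls held in all 19 other analyses. The ratio of CYR61 to CTGF counts ran from 1.74 to 2.36 over the 9 libraries, with 1.89 to 1.95 in PCDH, 1.84 to 2.36 in IDH1mt and 1.74 to 2.09 in C269S, and the ranges of the groups overlapped.

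AMOTL2 (ENSG00000114019, chromosome 3, 134355874 to 134375479, minus strand) encodes a member of the angiomotin family, which binds YAP and keeps it at cell junctions, and is itself a target of YAP and TAZ. Its values were 77.2, 75.7 and 80.7 CPM in the PCDH libraries, 60.5, 54.7 and 60.2 CPM in those of IDH1mt, and 67.4, 71.0 and 70.6 CPM in those of C269S. The 3 groups did not overlap, with C269S between the others. AMOTL2 fell 1.33-fold in IDH1mt against PCDH (log2 fold change -0.41 with an SE of 0.07; edgeR adjusted p = 6.05e-05), a call that held in all 19 other analyses. C269S was 1.19-fold above IDH1mt (log2 fold change 0.25 with an SE of 0.07, adjusted p = 0.0277), but this call was lost without any 1 of the IDH1mt or C269S libraries (adjusted p from 0.0583 to 0.197) and in limma on the deposited FPKM (adjusted p = 0.0634 with a pseudocount of 1 and 0.0629 with 0.1). Against PCDH its log2 fold change in C269S was -0.16 (95% interval -0.30 to -0.02) and did not pass after adjustment (adjusted p = 0.321).

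AMOTL1 (ENSG00000166025, chromosome 11, 94706431 to 94876753, plus strand) encodes another angiomotin and had a lower FPKM than AMOTL2. It had 35.7, 31.7 and 30.2 CPM in the PCDH libraries, 31.3, 37.4 and 34.8 CPM in those of IDH1mt, and 34.9, 35.5 and 34.5 CPM in those of C269S. All groups overlapped. Its log2 fold change was 0.09 in IDH1mt (95% interval -0.09 to 0.26, adjusted p = 0.59 in edgeR) and 0.10 in C269S (-0.08 to 0.28, adjusted p = 0.706), both against PCDH. LATS2 (ENSG00000150457, chromosome 13, 20973032 to 21061547, minus strand), the kinase that phosphorylates YAP and TAZ and is induced by them, had 27.6, 33.2 and 33.8 CPM in the PCDH libraries, 31.6, 32.1 and 35.2 CPM in those of IDH1mt, and 31.5, 33.0 and 35.01 CPM in those of C269S. PCDH replicate 1 was the lowest library, and the rest lay close together. The 95% interval for LATS2 in IDH1mt against PCDH ran from -0.13 to 0.24 on the log2 scale, and the -0.41 of AMOTL2 lay outside it. The interval covers only the spread among libraries.

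WWTR1 (ENSG00000018408, chromosome 3, 149517235 to 149736714, minus strand), which encodes TAZ, was the member called against PCDH in both mutant groups. Its values were 76.6, 76.9 and 89.7 CPM in the PCDH libraries, 103, 103 and 104 CPM in those of IDH1mt, and 104, 101 and 94.97 CPM in those of C269S. Every mutant library was above every vector library, and the mutant groups overlapped. WWTR1 rose 1.27-fold in IDH1mt (log2 fold change 0.35 with an SE of 0.07; edgeR adjusted p = 4.84e-04), in all 19 other analyses too. In C269S it rose 1.23-fold (log2 fold change 0.30 with an SE of 0.07, adjusted p = 0.0143), and this call was lost in 7 of 19: without PCDH replicate 1 or 2 (adjusted p = 0.11 and 0.105), without C269S replicate 1 or 2 (adjusted p = 0.13 and 0.078), with the 6 libraries alone (adjusted p = 0.0519) and in both fits of the FPKM (adjusted p = 0.119 and 0.117). Without PCDH replicate 3, the highest vector library, its log2 fold changes were 0.43 in IDH1mt and 0.38 in C269S. C269S differed from IDH1mt by -0.04 (95% interval -0.18 to 0.09, adjusted p = 0.816).

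YAP1 (ENSG00000137693, chromosome 11, 102110461 to 102233423, plus strand), the paralogue of WWTR1, had 95.04, 102 and 111 CPM in the PCDH libraries, 112, 111 and 115 CPM in those of IDH1mt, and 108, 114 and 98.7 CPM in those of C269S. The groups overlapped. Its log2 fold change in IDH1mt against PCDH was 0.13 (SE 0.07, 95% interval 0.00 to 0.27, adjusted p = 0.21 in edgeR) and passed only without PCDH replicate 3 (log2 fold change 0.19, adjusted p = 0.0362). In C269S it was 0.06 (adjusted p = 0.806). The ratio of YAP1 to WWTR1 FPKM was 1.66, 1.77 and 1.65 in PCDH, 1.46, 1.43 and 1.47 in IDH1mt, and 1.38, 1.51 and 1.39 in C269S. All 6 mutant libraries therefore had relatively more WWTR1 than the 3 vector libraries, a ratio that was not tested beyond these values.

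TEAD1 (ENSG00000187079, chromosome 11, 12674591 to 12944483, plus strand), which brings YAP and TAZ to DNA, had 151, 157 and 176 CPM in the PCDH libraries, 170, 167 and 168 CPM in those of IDH1mt, and 171, 171 and 168 CPM in those of C269S. The vector libraries spanned the range of the mutants. Its log2 fold changes were 0.06 in IDH1mt (95% interval -0.06 to 0.19) and 0.08 in C269S (-0.05 to 0.20), both against PCDH, with adjusted p = 0.551 and 0.684 in edgeR.

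AXL (ENSG00000167601, chromosome 19, 41219203 to 41261766, plus strand), a receptor tyrosine kinase for GAS6 and a target of YAP and TAZ, had 400, 431 and 414 CPM in the PCDH libraries, 389, 390 and 381 CPM in those of IDH1mt, and 386, 416 and 407 CPM in those of C269S. The IDH1mt libraries lay below the vector libraries without overlap, by a small margin. The log2 fold change of -0.10 (SE 0.05, 95% interval -0.21 to 0.00) did not pass (adjusted p = 0.214 in edgeR). It passed when libraries were scaled by size alone (log2 fold change -0.15, adjusted p = 0.0441 in edgeR). That scaling also moved the median log2 fold change over all genes, from -0.008 to -0.055. Against PCDH the C269S level differed by -0.04 (adjusted p = 0.815).

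ANKRD1 (ENSG00000148677, chromosome 10, 90912096 to 90921276, minus strand), a nuclear ankyrin repeat protein of muscle that YAP and TAZ also induce elsewhere, had few reads. It had 9, 10 and 9 counts in PCDH, 19, 23 and 16 counts in IDH1mt, and 17, 17 and 5 counts in C269S. Every IDH1mt library had more than every PCDH library, but since the gene passed the filter only through the higher groups, nothing is read from this direction. C269S replicate 3 was the lowest library of all. The log2 fold change of 1.04 in IDH1mt had a wide 95% interval (-0.03 to 2.10) and did not pass (adjusted p = 0.207 in edgeR). In C269S against PCDH it was 0.61 (-0.49 to 1.72), and 1.03 without C269S replicate 3 (adjusted p = 0.413).

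**Figure D3:**
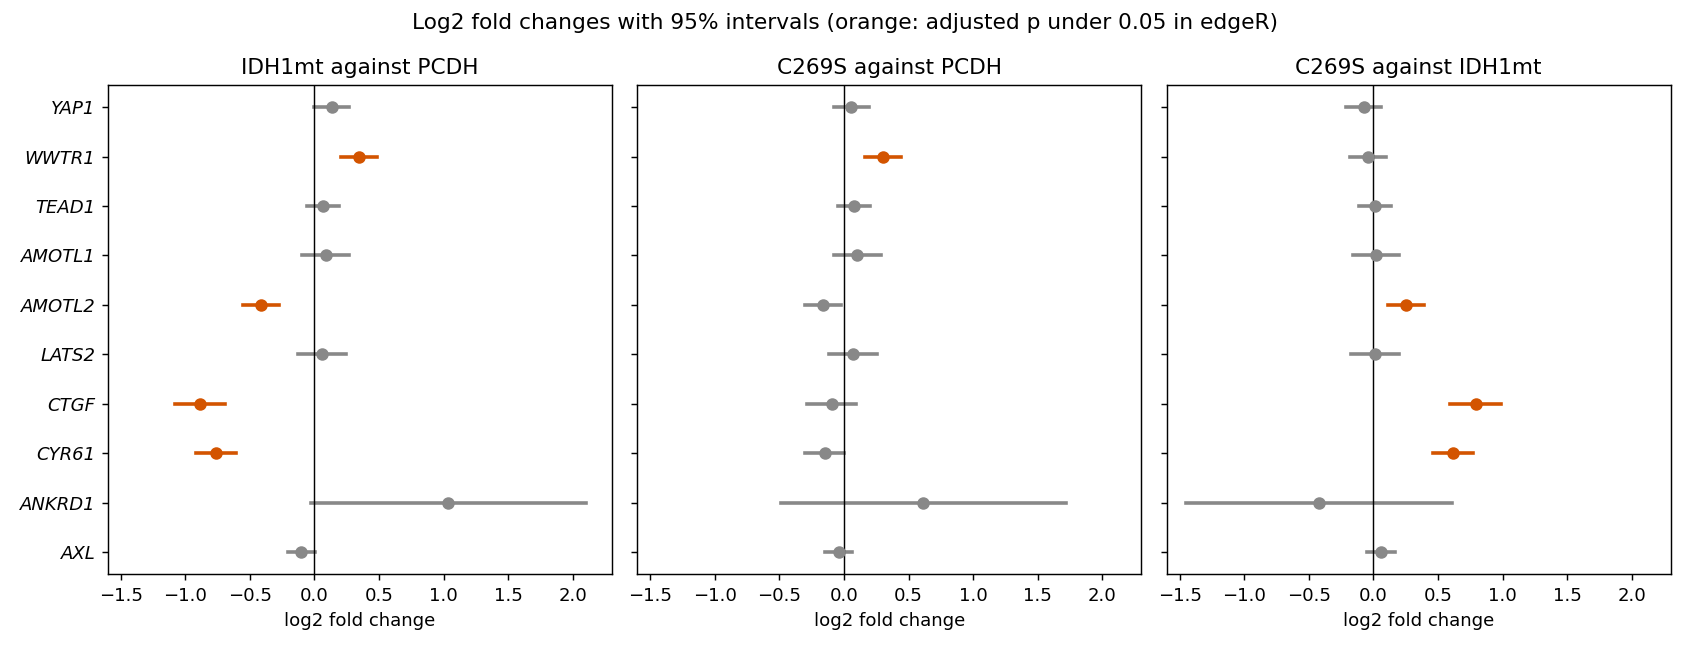
Log2 fold change of each of the 10 genes with its 95% interval in the 3 comparisons, with genes at an adjusted p under 0.05 in orange. CTGF and CYR61 lie to the left in IDH1mt against PCDH (-0.89 and -0.76) and to the right in C269S against IDH1mt (0.79 and 0.61), and the interval of ANKRD1 is the widest in each panel.

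Antisense or other genes overlap 8 of the 10 members in GENCODE 29, all but CYR61 and ANKRD1. They held few counts, at most 49 in any library for WWTR1-AS1, 41 for AC011510.1 beside AXL and 10 for AL133346.1 beside CTGF. Whether counting used the strand is not given in the sources used here, so reads of these partners cannot be told apart.

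Other known targets of YAP and TAZ moved both ways. Of 24 listed, 20 could be tested: 6 rose in IDH1mt against PCDH, 3 fell and 11 did not pass, where 7.18% of all genes rose and 6.9% fell, with a median log2 fold change of 0.03 beside -0.01 over all genes. F3, tissue factor, the trigger of blood clotting, rose 2.301-fold from 472 ± 26.1 to 1087 ± 31.6 CPM (log2 fold change 1.20 with an SE of 0.05; edgeR adjusted p = 2.03e-17, n = 3 each). INHBA, an activin subunit, rose 1.68-fold, and IGFBP3, which binds insulin-like growth factors, rose 1.30-fold. The 3 that fell were FJX1, CCDC80 and FSTL1, with log2 fold changes of -0.25, -0.21 and -0.18, named here after their values were seen. FSTL1 lost its call without PCDH replicate 3, IDH1mt replicate 1 or 3, and FJX1 without PCDH replicate 2 or IDH1mt replicate 1. ASAP1 and DOCK5, which rose, were also named after their values were seen. With 1 library left out, ASAP1 kept its call in 4 of 9 analyses and DOCK5 in 7 of 9. F3, INHBA, IGFBP3 and CCDC80 kept theirs in all 9. ASAP1 lost its call without PCDH replicate 1 or 2 or any IDH1mt library. DOCK5 lost it without PCDH replicate 1 or IDH1mt replicate 3. Leaving out a C269S library keeps both groups of this comparison whole. With each library left out, 4 to 6 rose and 1 to 4 fell.

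In C269S against IDH1mt, 2 of these 20 targets were higher, 3 lower and 15 did not pass, where 2.29% of all genes were higher and 2.61% lower. F3 (654 ± 11.0 CPM in C269S) and IGFBP3 were 1.66-fold and 1.22-fold lower than in IDH1mt, and FJX1 was 1.23-fold higher. THBS1, thrombospondin, was also higher (1.41-fold) and was named after its values were seen. Against PCDH, 2 rose in C269S, F3 (1.38-fold) and INHBA (1.44-fold), and 18 did not pass, where 0.883% of all genes rose and 0.533% fell. The count of targets that rose was 6 without PCDH replicate 3, where the genes called over all went from 239 to 903.

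Among 27 tested genes of the Hippo kinases and their upstream regulators (28 listed), 3 rose in IDH1mt against PCDH, 2 fell and 22 did not pass, with a median of 0.01. Called over all genes were 14.1%, so that the count is near the background. LIMD1, a LIM protein that inhibits LATS kinases, rose 1.38-fold from 90.3 ± 5.98 to 125 ± 2.78 CPM (adjusted p = 3.48e-06 in edgeR, n = 3 each). WWC1, the scaffold KIBRA that activates the kinases, rose 1.42-fold, and TAOK1, an upstream kinase, rose 1.20-fold. WWC3, a relative of WWC1, fell from 75.7 ± 2.91 to 55.9 ± 1.24 CPM (log2 fold change -0.44). STK3, the kinase MST2, had a log2 fold change of -0.30 and was named after its values were seen. Its call was lost in 5 of 9 analyses that left out 1 library, among them that without PCDH replicate 3. TAOK1 lost its call without PCDH replicate 1 or 2 or IDH1mt replicate 2. With each library left out, 2 to 5 of the 27 rose, most without PCDH replicate 3, and 1 to 3 fell.

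In C269S against IDH1mt, WWC3 was 1.30-fold higher, FAT1, a large cadherin upstream of the pathway, was 1.24-fold higher, LIMD1 was 1.26-fold lower and 24 did not pass. Over all genes, 2.29% were called higher and 2.61% lower in that comparison. FAT1 lost its call without IDH1mt replicate 1 or 3 or C269S replicate 2. None of the 27 passed between C269S and PCDH in edgeR, where 1.42% of all genes were called. There 6 had an unadjusted p under 0.05, 0 passed in DESeq2 and 3 passed without PCDH replicate 3. Without that library 903 genes were called over all, instead of 239. The other core kinases LATS1 and STK4 and the scaffolds SAV1, MOB1A and MOB1B did not pass in any of the 3 comparisons.

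Of the other TEAD factors and the VGLL cofactors that compete for TEAD, 6 of 7 listed could be tested. VGLL3 fell from 51.1 ± 6.20 to 35.7 ± 0.780 CPM in IDH1mt (log2 fold change -0.52 with an SE of 0.09; edgeR adjusted p = 1.39e-04) and was 1.30-fold higher in C269S than in IDH1mt (adjusted p = 0.0105), a call lost without IDH1mt replicate 3 or C269S replicate 1 or 2. Its C269S libraries had 49.97, 50.10 and 39.7 CPM, the last from replicate 3. TEAD2, TEAD3, TEAD4, VGLL2 and VGLL4 did not pass in any comparison. In IDH1mt against PCDH, 3 of the 6 had an unadjusted p under 0.05 in edgeR, VGLL3, TEAD2 and TEAD4, all lower. TEAD2 had a log2 fold change of -0.54 (adjusted p = 0.0889 in edgeR) and TEAD4 of -0.32 (adjusted p = 0.146). The median log2 fold change of the list was -0.32 there, beside -0.01 over all genes. Over all genes, 14.1% were called in IDH1mt against PCDH and 4.9% in C269S against IDH1mt. Per length, TEAD1 (15.5 FPKM in PCDH) was above TEAD4 (4.96), TEAD3 (4.49) and TEAD2 (1.43). No gene of this group passed between C269S and PCDH in edgeR, where 1.42% of all genes were called. In that comparison 0 had an unadjusted p under 0.05 and 0 passed in DESeq2.

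The other CCN genes did not pass in any comparison in edgeR (3 of 4 tested). Over all genes, 14.1% were called in IDH1mt against PCDH, 1.42% in C269S against PCDH and 4.9% in C269S against IDH1mt. NOV had a log2 fold change of -0.33 in IDH1mt against PCDH (adjusted p = 0.0966), and WISP1, at 73.9 CPM in PCDH, one of 0.05. In each comparison 1 of the 3 had an unadjusted p under 0.05, NOV in IDH1mt against PCDH and WISP1 in the others, and 0 passed in DESeq2. Of the relatives and ligands of AXL, the ligand GAS6 rose 1.28-fold in IDH1mt against PCDH (42.0 to 53.9 CPM, adjusted p = 0.0032 in edgeR) and the ligand PROS1 had a log2 fold change of -0.24 (adjusted p = 0.0408), a call lost in 6 of 9 analyses that left out 1 library, among them that without PCDH replicate 3. The receptor TYRO3 did not pass, and MERTK was too low to test.

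**Figure D4:**
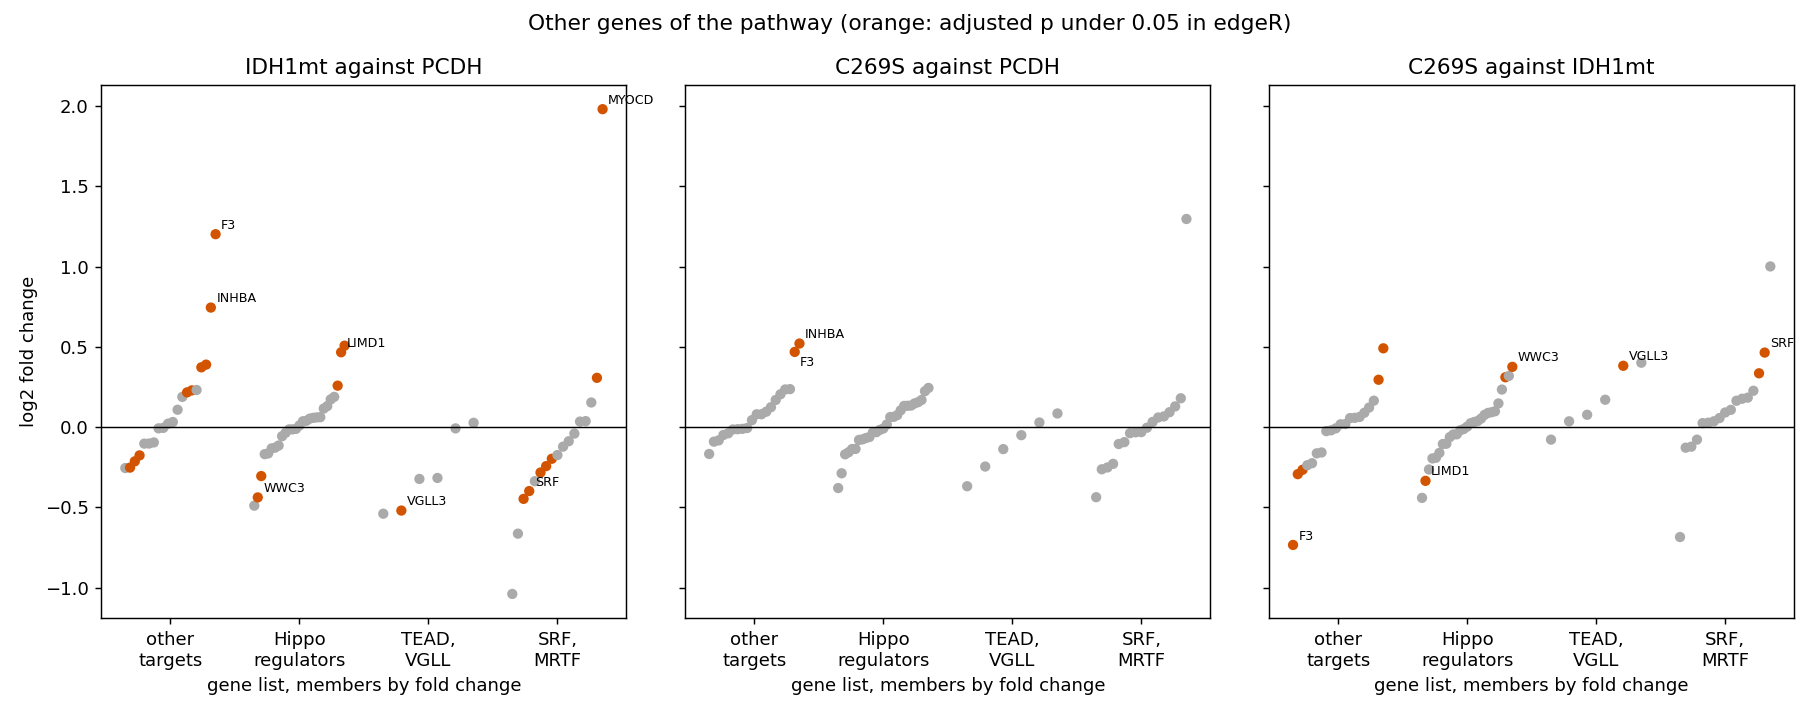
Log2 fold change of every tested gene of 4 lists in the 3 comparisons, ordered by size within a list, with genes at an adjusted p under 0.05 in orange. F3 and INHBA stand at the top of the other targets in IDH1mt against PCDH, and VGLL3, WWC3 and SRF lie below 0 there and above 0 in C269S against IDH1mt.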

How the data were processed

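The deposited count table holds whole-number read counts per gene, which the authors made with HISAT2 version 2.0.5 and featureCounts version 1.5.0-p3 on GRCh38, per the submitters' processing notes. The deposited FPKM values equal counts over gene length and library total times 1 factor per library (0.969 to 1.02). The column names Control, mt and CS were read as the vector group, IDH1mt without the second change, and C269S. All 10 members have the same coordinates in GENCODE 29. Selection of RNA and strand setting are not given in the sources used here.

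Genes were filtered with filterByExpr and libraries scaled with TMM factors. All 9 libraries entered 1 quasi-likelihood fit in edgeR (edgeR 4.0.16, R 4.3.3), with p adjusted by Benjamini and Hochberg over 16874 genes and calls at 0.05. CPM are relative to the reads of the tested genes. SE is the log2 fold change over the root of F, and 95% intervals are from it. The steps were also run on simulated counts of independent libraries with known changes in IDH1mt, and the outcome is not reported here. Such counts hold no shared cultures and no differences between lines. Other analyses were DESeq2 size factors or library size alone, no filter or 1 CPM in 3 libraries, the 6 libraries alone, a replicate block, each library left out, DESeq2 1.42.0, limma-voom (limma 3.58.1) and limma on log2 of FPKM plus 1 or 0.1.

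The members and lists were chosen with earlier results of these data known. All 10 members were named, with, unless marked as named after their values were seen, up to 4 genes of lowest adjusted p per list and comparison (1 such gene is counted but not reported here), and the 3 nearest patterns per called member among genes averaging 1 or more on the log2 CPM scale.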

Additional observations from a re-analysis of the deposited data

How the results depend on the processing

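CTGF, CYR61 and AMOTL2 in IDH1mt against PCDH, WWTR1 in the same comparison, and CTGF and CYR61 in C269S against IDH1mt kept direction and call in all 19 other analyses. The count of members higher in C269S against PCDH was 0 with the 6 libraries alone and in both FPKM fits. Leaving out 1 library gave 1 to 2 members higher and 3 lower in IDH1mt against PCDH, 0 to 1 higher in C269S against PCDH, and 2 to 3 higher in C269S against IDH1mt. Signs turned only for values near 0 that were never called. With 1 library left out, LATS2 ran from -0.0277 to 0.1104 in IDH1mt against PCDH and from -0.0146 to 0.1239 in C269S against PCDH, lowest without PCDH replicate 1. In C269S against IDH1mt it ran from -0.0305 to 0.0614, below 0 without IDH1mt replicate 1 or 2 or C269S replicate 3, and AMOTL1 ran from -0.0474, without IDH1mt replicate 1, to 0.0821.

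Counts over all genes moved more. They were 1617 to 3048 for IDH1mt against PCDH, 103 to 903 for C269S against PCDH and 450 to 1244 for C269S against IDH1mt with 1 library left out, each highest without PCDH replicate 3. In limma on FPKM with a pseudocount of 0.1 they were 1582, 87 and 445, and with 1 they were 85 for C269S against PCDH and 443 for C269S against IDH1mt. C269S against PCDH gave 145 genes with its 6 libraries alone and 364 in DESeq2. The cause of these differences was not tested. Depth limits ANKRD1, which the filter of 1 CPM removed.

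The replicate numbers share no stated origin, and deviations of same-numbered libraries correlated between -0.09 and 0.06 over 9 pairs, so they were not taken as pairs. With the replicate number as a block, 1987, 172 and 605 genes were called in the order above. AMOTL2 in C269S against IDH1mt then had an adjusted p = 0.0588 in edgeR, with a log2 fold change of 0.25. The block changed no other call of the members.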

Other observations

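Serum response factor (SRF) and its coactivators of the MRTF family drive cytoskeletal genes and share targets, CTGF and CYR61 among them, with YAP and TAZ. Of 17 listed SRF and MRTF factors and targets, all tested, 5 fell in IDH1mt against PCDH, 2 rose and 10 did not pass in edgeR, where 6.9% of all genes fell and 7.18% rose (median log2 fold change -0.17, beside -0.01 over all genes). SRF had 28.3, 26.1 and 26.9 CPM in the PCDH libraries, 20.6, 20.2 and 20.9 CPM in those of IDH1mt, and 28.9, 28.5 and 27.8 CPM in those of C269S, so that the IDH1mt libraries lay below all others. Its log2 fold changes were -0.40 in IDH1mt against PCDH (SE 0.09, adjusted p = 0.00212) and 0.47 in C269S against IDH1mt (SE 0.09, adjusted p = 9.67e-04), and both calls held in all 19 other analyses. TPM1, a tropomyosin, and FHL2, a LIM protein, fell with log2 fold changes of -0.28 and -0.24, and MRTFB, a coactivator of SRF, rose 1.24-fold. Also called were ACTA2 (-0.45) and CALD1 (-0.20), lower, and MYOCD (1.98), higher, named after their values were seen. MYOCD had 1 to 20 counts per library and entered the test only through the groups in which it was higher. Its rise, counted above among the 2, is therefore not read as a result. It passed in 1 of 9 analyses that left out 1 library, that without C269S replicate 3, which keeps both compared groups whole. ACTA2 lost its call without PCDH replicate 2 and CALD1 without PCDH replicate 3 or IDH1mt replicate 2 or 3. FHL2 lost its call without IDH1mt replicate 2. In C269S against IDH1mt, FHL2 (1.26-fold) and SRF were higher and 15 did not pass, where 2.29% of all genes were higher and 2.61% lower. With each library left out, 3 to 7 fell in IDH1mt against PCDH, fewest without IDH1mt replicate 2 and most without PCDH replicate 3, and 1 to 2 rose.

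For the 4 members called in some comparison, the protein-coding genes of the nearest pattern were found by the root mean squared difference of log2 CPM over the 9 libraries, each gene centred on its own mean. Nearest to CTGF were ADAMTS1, a matrix protease (difference 0.10), PLPPR4 (0.12) and CIART (0.12), and CYR61 was number 6. The mean CPM of ADAMTS1 was 183 ± 9.31 with the vector, 98.99 ± 7.38 with IDH1mt and 152 ± 1.77 with C269S (± SD over 3 libraries). Nearest to CYR61 were RGMB (0.08), ELOVL3 (0.09) and PLPPR4 (0.09), and CTGF was number 40. Nearest to AMOTL2 were MCM5, FKBP4 and BACE1 (0.04 to 0.05), and nearest to WWTR1 were RAB3GAP2, SSR1 and AGFG1 (all 0.04), while YAP1 was number 785 for WWTR1. A gene with small changes has many near neighbours on this measure.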
